A study of Vitis vinifera with 4 samples.

Results

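A local cluster was defined here as a place where NAC61 binding events lie close together on a grapevine chromosome. An event was counted as clustered when at least 2 other events had their summit within 5000 bp of its own summit on either side, and events on the unanchored sequence (chr00) were left out. By this rule 606 of the 8389 anchored events were clustered, or 7.22%, out of 8558 events in the whole list. They were found by DNA affinity purification sequencing (DAP-seq), in which a TF made in vitro is mixed with fragmented naked genomic DNA and the retained DNA is sequenced. Both proteins, HALO-NAC61 (the grapevine NAC61 sequence behind a HALO affinity tag) and the GST-HALO control without a TF, were translated in rabbit reticulocyte lysate and mixed with genomic DNA from pooled young leaves of fruiting cuttings of cv. 'Syrah', with 2 replicates per protein. The authors called 1 list of events from both replicates together, so the replicates cannot be set against each other here, and the depth behind an event is its own number of reads. Grapevine chromatin, other grapevine proteins and the expression of NAC61 in the leaf play no part in this assay.

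NAC proteins are a plant-specific family of TFs, named after the NAM, ATAF and CUC genes, with a conserved DNA-binding domain at the N terminus through which they also form dimers. The core that many of them recognise is the short sequence CACG, or CGTG when read on the other strand. Several members of the family act in senescence, fruit ripening and the response to drought and salt, and a promoter with several such sites offers room for more than 1 dimer. The peak caller GEM learns short enriched sequences (k-mers) while it places events, and the part of the study's gene table used here gives the k-mer at an event where there was one. These k-mers are shown because they are the letters on which neighbouring events of a cluster can be compared. They are written 5′ to 3′ in the orientation of the table, with CGTG in capitals and n for any base. The 5 k-mers most often given at clustered events, and the k-mer most often given at the other events, were the following.
k-mer 1: atgaCGTG
k-mer 2: tgaCGTGt
k-mer 3: tgnCGTGt
k-mer 4: gattgCGTGt
k-mer 5: tggCGTGt
k-mer 6: attgcttgt
K-mers 1 to 3 were given at 6 of the 61 clustered events with a k-mer each (9.84%), and k-mers 4 and 5 at 4 each (6.56%). Among the 680 other events with a k-mer, atgaCGTG was given at 25 (3.68%), tgaCGTGt and tgnCGTGt at 34 each (5%), gattgCGTGt at 7 (1.03%) and tggCGTGt at 38 (5.59%). These shares rest on few clustered events and were not tested. Each k-mer shown was picked for being frequent in 1 of the 2 groups, which favours a higher share in that group. The shares are therefore not read as a difference between the groups. The k-mer without the CGTG core, attgcttgt, was given at 2 of the 61 clustered events with a k-mer (3.28%) and at 47 of the 680 other events with one (6.91%). It holds CTTG, or CAAG on the other strand, which the main NAC61 motif reported in the paper allows beside CACG.

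The 606 clustered events formed 234 local clusters, when clustered events at most 5000 bp apart were chained together. Of these clusters, 134 held 3 clustered events, 25 held 4, 5 held 5 and 1 held 6. A further 4 clusters held 2 clustered events, and 65 clusters held a single clustered event that lay between 2 events which did not meet the rule themselves. There were 156 such flanking events, and with them counted, 184 clusters had 3 events, 41 had 4, 8 had 5 and 1 had 6. Most clustered events had the smallest number of neighbours that the rule allows, since 486 had 2 other events within 5000 bp, 99 had 3, 18 had 4 and 3 had 5. At the edge of the rule, the clustered event at position 29469029 of chromosome 18 had its second nearest event at exactly 5000 bp, with a signal of 96 reads. Just outside, the event at position 1900877 of chromosome 13 had its second nearest event at 5011 bp, with 79 reads. Signal here means the HALO-NAC61 reads, of both replicates together, that GEM attributed to an event. Positions are summits on the PN40024 12X.v2 assembly, as the authors' event names give them.

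Within clusters, adjacent events were mostly from 200 bp to a few kb apart. The distance between adjacent clustered events ranged from 69 to 4894 bp over 372 pairs, with a median of 1275.5 bp and quartiles of 518 and 2434 bp. The rule itself sets the upper end of these distances and favours short ones. They are given as a description, also where they stand beside those of other pairs. In 79 pairs (21.2%) the summits were over 200 and up to 500 bp apart, and in 10 pairs (2.69%) they were at most 200 bp apart. A further 73 pairs (19.6%) were up to 1000 bp apart and 90 pairs (24.2%) up to 2000 bp apart. Per 100 bp of distance, the class from 200 to 500 bp held 7.08% of the pairs, more than the 1.34% of the class below it and the 3.92% of the class above it. Among the 1076 adjacent pairs within 5000 bp that were not both clustered, the median distance was 2156 bp. Of these pairs, 29 (2.70%) were at most 200 bp apart and 131 (12.2%) over 200 and up to 500 bp. A further 164 (15.2%) were over 500 and up to 1000 bp apart. Pairs at most 200 bp apart were thus few in both groups. The clusters of at least 3 clustered events, 165 in all, measured 344 to 9084 bp from the first to the last summit, with a median of 3452 bp.

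**Figure D1:**
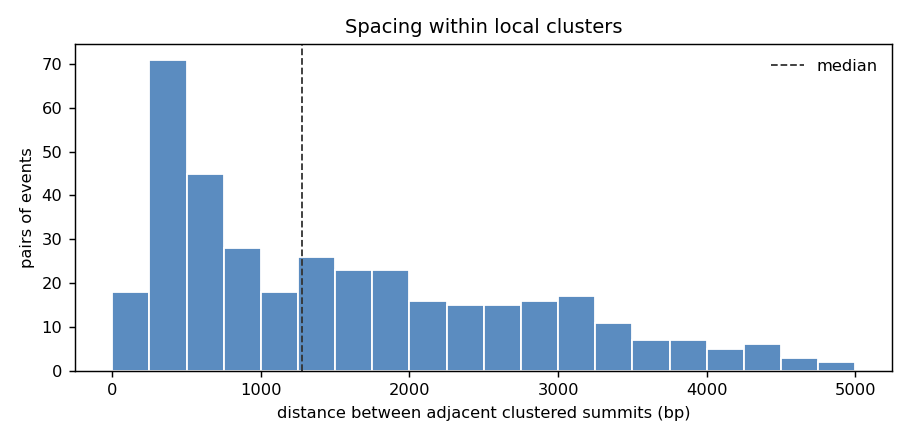
Number of adjacent pairs of clustered events (vertical axis) by the distance between their summits in bp (horizontal axis, bins of equal width), over 372 pairs on 19 chromosomes. The highest bar lies just below 500 bp, while the first bar is far lower, and the dashed line marks the median of 1275.5 bp.

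Signals that are not whole numbers were more frequent in closely spaced events. A signal that is not a whole number was found for 218 of the 606 clustered events (36.0%, 95% Wilson confidence interval from 32.3% to 39.9%) and for 1018 of the 7783 other anchored events (13.1%, from 12.3% to 13.8%). All 10 clustered pairs at most 200 bp apart contained such a signal, and 75 of the 79 pairs over 200 and up to 500 bp apart did. From 500 to 1000 bp the number was 34 of 73 pairs (46.6%). In the classes up to 2000, 3000 and 5000 bp the share was 38.9%, 40.3% and 51.7%, with no steady fall. Among the 6922 adjacent anchored pairs over 5000 bp apart the number was 1558 (22.5%). A pair was counted when either event had such a signal, and that event can lie close to another one on its other side. The share in pairs far apart is therefore not that of events without a close neighbour. The part of such signals in the number of events in a cluster was not tested, and merging summits within 500 bp into 1 event left 399 clustered events in 177 clusters.

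The clustered events were close to the other events in signal. Their median signal was 89.9 reads (binomial 95% interval of the median from 87 to 93), with quartiles of 71.8 and 115 reads. For the 7783 other anchored events the median was 89 reads, with quartiles of 70 and 113.4 reads. The median −log10 q-value, which GEM computed against the control, was 7.635 (from 6.74 to 8.32) for clustered events and 7.11 (from 6.96 to 7.29) for the others. The intervals of the medians overlapped for both measures. A −log10 q-value of at least 5 was reached by 415 clustered events (68.5%), where 66.7% of all anchored events reached it. A −log10 q-value of at least 20 was reached by 71 clustered events (11.7%, 95% Wilson confidence interval from 9.39% to 14.5%), against 9.14% of all anchored events and 8.94% of the other anchored events. Signal and q-value come from the same comparison that placed the events, so no test was made between the groups.

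**Figure D2:**
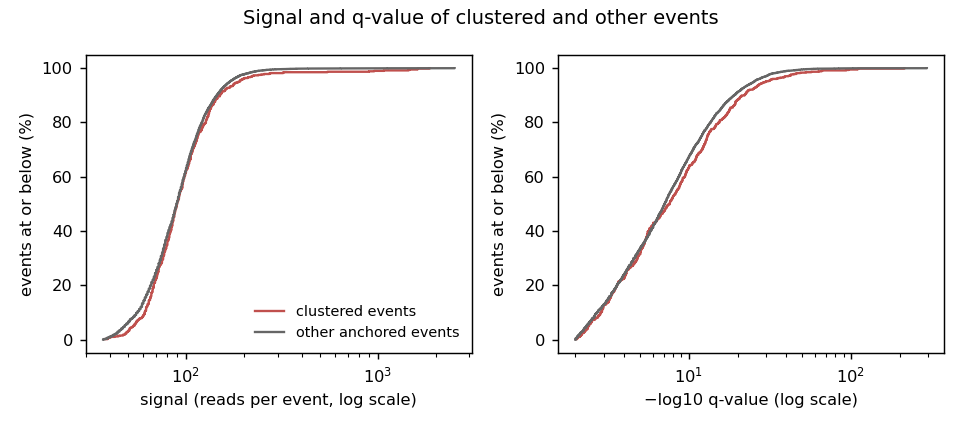
Cumulative share of events (vertical axes, %) by signal in reads (left, log scale) and by −log10 q-value (right, log scale), for 606 clustered events (red) and 7783 other anchored events (grey). The curves lie close together around the medians of 89.9 and 89 reads.

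The upper tail was where the groups lay apart in these values, and a few places made up much of it. A signal of at least 160 reads was found at 50 clustered events (8.25%), where 6.65% of all anchored events had one. A signal of at least 400 reads was found at 9 clustered events (1.49%), where 0.262% of all anchored events (22 events) had one. Of these 9 events, 8 lay in 2 clusters, on chromosomes 14 and 10. These 8 events held 15.6% of the summed signal of all clustered events. The mean signal of clustered events was 115.6 reads with them and 98.9 reads without them, next to 97.6 reads for the other anchored events.

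The cluster with the highest summed signal, 6035 reads, lay on chromosome 14 from 12263745 to 12265522. Its 4 events had 1614.7, 1605.3, 1859.5 and 955.5 reads in order of position, with −log10 q-values of 97.2, 109.4, 213.6 and 42.4. The summits were 417, 818 and 542 bp apart, and all 4 signals were not whole numbers. Every event of this cluster was thus over 10 times the median of the list, and the event with the fewest reads also had the lowest −log10 q-value of the 4. The next cluster, on chromosome 10 from 16273121 to 16275953, had 4878.4 reads over 4 events, with 1440, 898, 1466.3 and 1074.1 reads in order of position. The event with 1466.3 reads had the most there, but the one with 1440 reads had the highest −log10 q-value, 110.8 against 63.2. Signal and q-value so gave a different order within this cluster. The same stretch of chromosome 10, from 16223438 to 16317234, held 8 of the 22 anchored events with at least 400 reads, of which 4 were clustered. The 4 others were not clustered, and among them was the anchored event with the highest signal, 2511 reads at 16223438. No gene was assigned to these 2 clusters in the part of the gene table used here, and the reads of the control at these places were not analysed here.

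The other clusters with a high summed signal were far weaker. On chromosome 6, from 13480726 to 13483121, 3 events had 546, 322.3 and 78.7 reads and summed to 947 reads. This cluster had the widest range of all with at least 3 clustered events, its highest signal being 6.94 times the lowest. On chromosome 18, from 7977480 to 7982357, 4 events had 100.3, 271.7, 217 and 68 reads. Over the 165 clusters with at least 3 clustered events, the median summed signal was 302.5 reads.

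Within most clusters the events differed little in signal. The highest signal was 1.72 times the lowest at the median over 165 clusters, with quartiles of 1.44 and 2.18 times and a lowest value of 1.06 times. It was at least 2 times the lowest in 50 clusters and at least 4 times in 3 clusters. Adjacent clustered events differed 1.36 times in signal at the median, and adjacent anchored events over 5000 bp apart differed 1.40 times. Neighbours in a cluster were therefore about as unequal as events that lie far apart. The rank correlation between the signals of adjacent clustered events was weak, with a Spearman's rho of 0.152 over 372 pairs and 0.110 over the 366 pairs left without the 2 strongest clusters. These pairs share events and libraries, and many at short distance hold signals that are not whole numbers, so the correlation is only a description. In the 134 clusters with 3 clustered events, the strongest event was the first by position in 40, the middle one in 54 and the last in 40. In 47 of the 165 clusters all clustered events reached a −log10 q-value of 5, and in 3 clusters none did.

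The cluster with the most events lay on chromosome 18 from 13734269 to 13739881 and held 6. Their signals were 81.9, 76.1, 89.4, 67.6, 127 and 71.8 reads in order of position. Only the event with 127 reads stood well above the others, and its −log10 q-value was 17.2, where they had 3.70 to 6.71. A second cluster of chromosome 18, from 10220368 to 10223977, held 5 events, and there 1 event at 226.3 reads, whose −log10 q-value was 65.9, exceeded the others, which had 54 to 97 reads. A cluster on chromosome 5 from 8694442 to 8699417 held 5 events with 67.8, 122.3, 128, 48.4 and 96.6 reads. These clusters therefore ranged from nearly level signals to 1 strong event with weaker ones around it. No gene was named for these 3 in the part of the gene table used here. The same pattern of 1 strong event was found on chromosome 13 from 12995531 to 12997068, where 238.4 reads stood beside 50.7, 76.3 and 40.6 reads. On chromosome 2, from 2198031 to 2200407, 4 events had 72.5, 110.2, 70.8 and 82.9 reads, and on chromosome 17, from 3878086 to 3880746, 4 events had 65, 81.5, 82.5 and 47 reads.

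**Figure D3:**
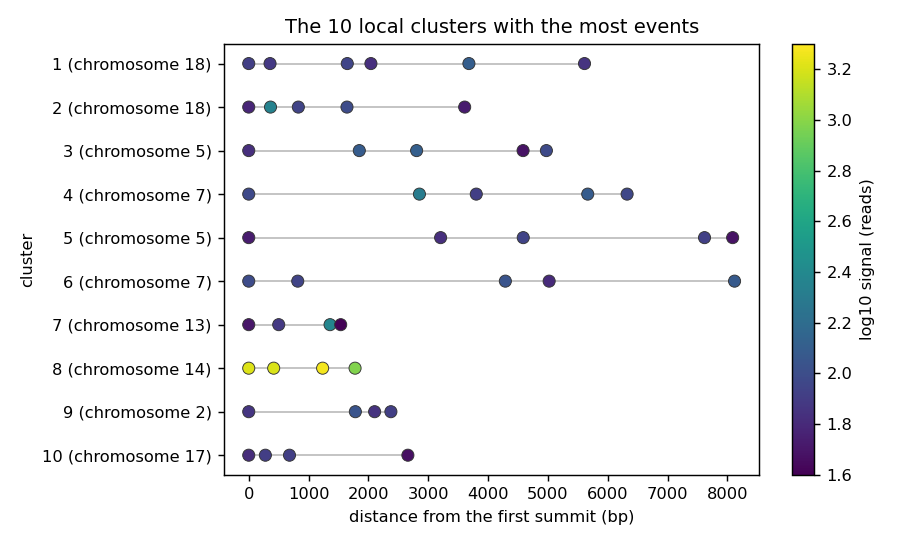
Position of each event, as distance from the first summit of its cluster in bp (horizontal axis), in 10 of the local clusters with the most clustered events (rows, those of 4 events being the shortest 4 of 25), coloured by log10 of the signal in reads. The cluster of chromosome 14 has 955.5 to 1859.5 reads per event and all other events drawn have 40.6 to 238.4, while the strong 4-event cluster of chromosome 10 is not among those drawn.

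The shortest clusters packed 3 events into less than 1000 bp. The shortest of all, on chromosome 9 from 2249190 to 2249534, had 89.2, 77.3 and 54.5 reads, with summits 69 and 275 bp apart. The −log10 q-values were 12.5, 5.32 and 3.26 in the same order. On chromosome 5, from 22924777 to 22925402, the middle of 3 events was the strongest with 78.5 reads, next to 45.1 and 61.4 reads. The middle event was also the strongest on chromosome 6 from 19335877 to 19336547, with 66.3 reads next to 50 and 50.7 reads. The same held on chromosome 5 from 4920836 to 4921538, with 103.1 reads next to 75 and 58 reads. The longest of these 5 clusters, at the LOG5 gene on chromosome 3, is described with its gene.

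The share of clustered events differed between chromosomes. Chromosome 18 held 111 of the 606 clustered events in 38 of the 234 clusters, which was 14.98% of its 741 events (95% Wilson confidence interval from 12.6% to 17.7%). On the 18 other chromosomes together, 495 of 7648 events were clustered (6.47%, from 5.94% to 7.05%). The next highest share was 9.81% on chromosome 1 (57 of 581 events), and the lowest were 2.03% on chromosome 19 (7 of 344) and 3.03% on chromosome 12 (10 of 330). The density of events also differed between chromosomes. The 4 chromosomes with the lowest shares (19, 12, 16 and 9, from 2.03% to 4.53%) had 12.5 to 14.0 events per Mb between the first and last event, while chromosome 1 had 24.1, chromosome 18 had 21.6 and chromosome 8, with 7.21% of its events clustered, had 26.5. Chromosome 15 had a density as low as theirs, 13.8 per Mb, but 7.22% of its 277 events were clustered. Within chromosome 18 the first 3 stretches of 5 Mb held 184, 175 and 153 events, or 36.8, 35 and 30.6 per Mb, and the next 3 held 28, 78 and 61. The shares of clustered events were 16.3%, 17.7% and 20.3% in the first 3 stretches and 10.7%, 3.85% and 8.20% in the next 3. The last stretch, from 30 Mb on, held 62 events, or 12.4 per Mb, and 8 of them were clustered (12.9%). The denser part of this chromosome was thus also the part with the higher share of clustered events. Between single stretches, share and density were not in the same order, and the part of density in the shares was not tested. Within chromosome 18, 92 of the 512 events before 15 Mb were clustered (17.97%, from 14.9% to 21.5%), and 19 of the 229 events from 15 Mb on (8.30%, from 5.38% to 12.6%). The boundary of 15 Mb was chosen after the values were seen. Neighbouring events share their cluster and are not independent, so the intervals cover counting error only and are too narrow.

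**Figure D4:**
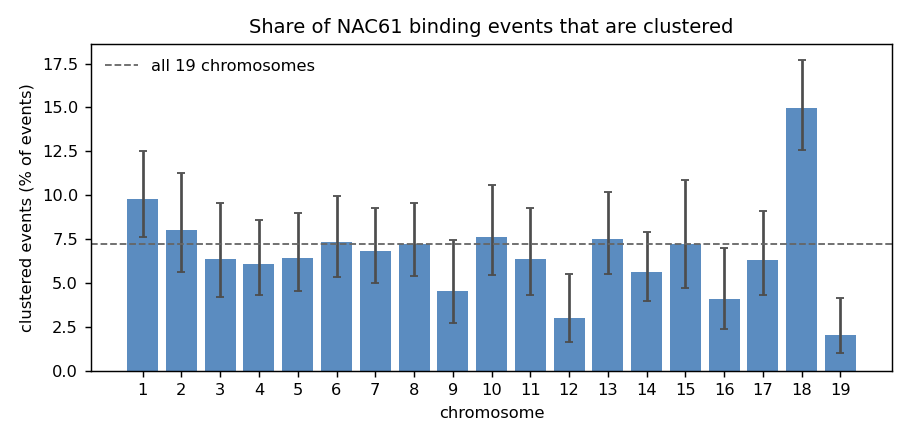
Clustered events as a percentage of all events of each chromosome (bars), with 95% Wilson confidence intervals for counting error (lines) and the share of 7.22% over all 19 chromosomes (dashed). Chromosome 18 is highest at 14.98% and chromosome 19 lowest at 2.03%.

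The genes at clusters could be described for the part of the study's gene table used here, which is sorted by annotation, runs from digits to the letter D and lists 1857 anchored events, of which 131 were clustered. These 131 events, in 60 clusters, were assigned to 65 genes, with 1 event at 25 genes, 2 events at 15, 3 events at 24 and 4 events at 1. Of the 25 clusters with at least 3 clustered events that were listed in full, 20 had all of them assigned to a single gene. Listing in full favours such clusters, since a cluster at several genes needs all of their annotations to fall in this part. The count is therefore not the share over all clusters. A distance to the TSS is measured from the summit to the gene start in the table. Of the 131 clustered events, 45 (34.4%, 95% Wilson confidence interval from 26.8% to 42.8%) lay within 3 kb upstream of the TSS, against 467 of the 1726 other listed events (27.1%, from 25.01% to 29.2%). Inside the gene lay 36 clustered events (27.5%, from 20.6% to 35.7%) and 654 of the others (37.9%, from 35.6% to 40.2%). Within 3 kb downstream of the gene end lay 20 clustered events (15.3%, from 10.1% to 22.4%) and 153 of the others (8.86%, from 7.61% to 10.3%). The counting intervals of both groups overlapped for each of these shares, only just for those inside the gene and downstream of it, and events of 1 cluster are not independent.

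Among the clustered events listed, 61 of 131 had a k-mer (46.6%, 95% Wilson confidence interval from 38.2% to 55.1%), and 680 of 1726 others had one (39.4%, from 37.1% to 41.7%). The k-mer held CGTG, or CACG on the other strand, at 52 of the 61 (85.2%, from 74.3% to 92.0%) and at 546 of the 680 (80.3%, from 77.1% to 83.1%). The letters CTTG or CAAG were in 5 (8.20%) and 112 (16.5%) of these k-mers, and CGTA or TACG in 6 (9.84%) and 60 (8.82%). Each of these shares had overlapping intervals in the 2 groups. GEM learned the k-mers on these events, so the shares describe the list and are not independent of it.

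Regulators of transcription were found among the genes with clusters. The gene table puts 10 of the 65 genes with a clustered event (15.4%, 95% Wilson confidence interval from 8.58% to 26.1%) in the category of transcription factor activity, and 93 of the 1394 listed genes without one (6.67%, from 5.48% to 8.10%). Genes annotated as MYB, bHLH, AP2 or DREB, zinc finger or NAC were 7 of 65 (10.8%, from 5.32% to 20.6%) and 35 of 1394 (2.51%, from 1.81% to 3.47%), and all 7 were bHLH or DREB genes. Of these, VvDREB27, bHLH080, bHLH081 and bHLH084 lie on chromosome 18 before 15 Mb, where the share of clustered events was high for all events (17.97%). The part of this in the share of regulators was not tested. With bZIP genes, which were added to this list after the values were seen, the numbers were 11 (16.9%, from 9.72% to 27.8%) and 51 (3.66%, from 2.79% to 4.78%). A gene with more events is more likely to have a clustered one, and families whose annotations begin with letters after D, such as most MYB and NAC genes, were not analysed here. Other groups had few or no genes among the 65, and these counts are too small to call a group less frequent there. Cytochrome P450 genes were 1 of 65 (1.54%) and 50 of 1394 (3.59%), aquaporins 0 and 10, and terpene synthases 0 and 5. The category of response to stress held 0 of the 65 genes and 34 of the 1394 (2.44%). The intervals of each of these groups overlapped. No test was made on this part of the table.

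The gene with the most clustered events was VvDREB27 (VIT_18s0001g05250), which codes for a member of the DREB group, TFs that act in the response to dehydration in Arabidopsis. Its position is chromosome 18, 4220268 to 4222313, plus strand. The 4 summits were at distances of 6587, 2861, 2211 and 1379 bp before the TSS, where 129, 106, 97 and 96.4 reads were found, at −log10 q-values of 12.03, 5.50, 4.80 and 6.94. The signals were nearly level, with the most distant event the highest. The k-mers tggCGTGt and tgnCGTGt were given at the 2 middle events, and none at the other 2. A related gene, annotated as ABI4 and VvDREB18 (VIT_13s0067g01400, chromosome 13 from 792365 to 793285, minus strand), had 2 of the 3 events of a cluster. ABI4 is a TF of abscisic acid and sugar signalling in Arabidopsis. The event 1469 bp upstream of its TSS had 115 reads and the k-mer tagCGTGt, and the event 511 bp inside the gene had 104 reads. Their −log10 q-values were alike, at 14.6 and 15.2.

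Clusters were assigned to 3 bZIP genes with 3 events each. bZIP proteins are TFs that bind DNA as dimers through a leucine zipper and a basic region. At VvbZIP03 (VIT_02s0025g01020, plus strand of chromosome 2 from 801671 to 808602), the events lay 2566, 124 and 2 bp upstream of the TSS with 80, 112.8 and 85.2 reads. The q-values separated the 2 nearest, with −log10 values of 23.7 at 124 bp and 2.44 at 2 bp. The k-mers at the first and second were
VvbZIP03, 2566 bp upstream: atgaCGTGtt
VvbZIP03, 124 bp upstream: tggCGTGt
and both hold the core. VvbZIP40 (VIT_15s0046g01440, minus strand of chromosome 15 from 18416554 to 18423462) had a k-mer with CGTG at each of its 3 events.
VvbZIP40, 2350 bp upstream: tgaCGTGt
VvbZIP40, 1468 bp upstream: gattgCGTG
VvbZIP40, 1535 bp inside the gene: atagCGTGt
Their signals were 211, 93.1 and 106 reads in this order, and their −log10 q-values 20.7, 15.6 and 12.4, so the outermost event was the strongest. VvbZIP05 (VIT_03s0038g00860, plus strand of chromosome 3 from 689247 to 693308) had no k-mer at any of its events. They lay 2938, 2650 and 951 bp upstream with 60.9, 53.1 and 69 reads, all below the median of the list. At VvbZIP15, annotated as HYH (VIT_05s0020g01090, plus strand of chromosome 5 from 2860048 to 2863747), a homologue of the light-signalling regulator HY5 in Arabidopsis, the table lists 1 clustered event, 1093 bp after the TSS. It had 320.8 reads, the highest signal of the 131 listed clustered events, a −log10 q-value of 57.0 and no k-mer.

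The bHLH family of TFs, which bind E-box sequences, was represented by 5 genes. At bHLH035 (VIT_07s0191g00240, plus strand of chromosome 7 from 20388417 to 20389879), 3 of the 5 events of a cluster lay 3226 bp upstream, 244 bp inside and 976 bp inside the gene, with 88, 110 and 63.9 reads. The upstream event carried attgcttgt, the k-mer without CGTG, and the innermost one gtttgCGTG. At bHLH081 (VIT_18s0001g07410, chromosome 18 from 5667975 to 5668837, minus strand), summits at 920 and 1491 bp before the TSS had 135 and 64 reads, at −log10 q-values of 5.47 and 3.22. The nearer event thus had the higher signal and q-value. The gene VIT_01s0026g02030 on chromosome 1 had 2 clustered events downstream of its end, with 70.5 and 104.1 reads, and bHLH080 and bHLH084 had 1 event each, with 79 and 99 reads. The CONSTANS-like gene VIT_06s0004g03870, whose CCT domain is known from regulators of flowering time, is on chromosome 6, plus strand, at 4819054 to 4820348. At 3093 bp upstream, 81 bp upstream and 13 bp past the gene end, its events had 221, 132 and 110.5 reads, and the −log10 q-values were 22.6, 10.1 and 14.3. All 3 were above the median of the list in both values. The k-mers at the upstream events were gattgcgta, which holds CGTA and not CGTG, and atgaCGTG.

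Genes of hormone metabolism, transport and response also carried clusters. The gene annotated as abscisic aldehyde oxidase (AAO3, VIT_18s0041g02430), an enzyme of the last step of abscisic acid synthesis in Arabidopsis, is on chromosome 18, minus strand, at 30982874 to 30994018. Its 3 events were all inside the gene, 3136, 3445 and 4044 bp after the TSS, with 59.8, 127.2 and 169 reads. Their −log10 q-values, 7.89, 36.7 and 48.7, were in the same order, and the last 2 were among the highest of the 131 listed clustered events. The k-mer at the strongest was tagCGTGt and that at the weakest gttgCGTGt. The gene for aldehyde oxidase 1 (VIT_18s0041g02410), upstream of which an event of another cluster lay at 182 bp with 72 reads, is a near neighbour on the same chromosome.

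LOG5 (VIT_03s0038g03420), annotated as an enzyme that releases active cytokinin from its nucleotide, is on chromosome 3, minus strand, at 2476022 to 2477403. Before its TSS, 3 summits at 2613, 3021 and 3386 bp had 72.5, 68.5 and 72 reads. This was the most even of all clusters with at least 3 clustered events, but the −log10 q-values were 2.43, 6.74 and 7.63. The k-mer gttgCGTG was given at the nearest event and atggCGTGt at the middle one. At the auxin efflux carrier gene VIT_04s0023g00320 (chromosome 4 from 16850559 to 16853948, plus strand), whose product belongs to the carriers that move auxin out of cells or organelles, events lay 4752, 3644 and 624 bp upstream with 100, 146 and 132 reads. All 3 exceeded the median of the list, with −log10 q-values of 7.81, 16.3 and 10.1. The middle event carried gattgCGTGt and the nearest gttgCGTGtt. In all, 4 of the 65 genes with a clustered event had auxin in their annotation (6.15%, 95% Wilson confidence interval from 2.42% to 14.8%), and 48 of the 1394 other listed genes (3.44%, from 2.61% to 4.54%), intervals that overlapped.

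The auxin-induced beta-glucosidase gene VIT_07s0005g01300, whose product belongs to enzymes that cleave beta-linked glucose, was assigned 3 of the 5 events of a cluster on chromosome 7. It runs from 4223350 to 4227388, on the minus strand. The event 119 bp upstream of the TSS had 202 reads, a −log10 q-value of 23.2 and the k-mer gattgCGTGt. The events 1069 bp upstream and 2734 bp inside the gene had 82 and 94.9 reads, so the strongest event lay nearest to the TSS. The other 2 events of the cluster, at 4230320 and 4230978, had 123 and 91 reads.

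Class IV chitinases, enzymes that cut the chitin of fungal cell walls, gave a cluster that spans 2 neighbouring genes on the minus strand of chromosome 5. VIT_05s0094g00330 runs from 24279029 to 24287067 and VIT_05s0094g00340 from 24287068 to 24288292. The cluster held 5 events, with 54, 67, 87, 83.8 and 48.2 reads in order of position, and every event had a k-mer with the core.
Position 24281015: atgaCGTGt
Position 24284222: gattgCGTGt
Position 24285603: tgnCGTGt
Position 24288633: atgaCGTGt
Position 24289103: tgnCGTGt
The k-mers atgaCGTGt and tgnCGTGt so appeared at both genes. The first 3 events lay inside VIT_05s0094g00330, and the last 2 lay 341 and 811 bp upstream of VIT_05s0094g00340. The event at 24288633 had the highest −log10 q-value, 19.5, while the others had 2.43 to 8.96. Reads that map equally well to copies of a gene are lost when reads of low mapping quality are removed, so signals at similar neighbouring genes are uncertain. A second cluster at neighbouring genes with the same annotation was found on chromosome 5 at 2 genes for the aromatic and neutral transporter 1. VIT_05s0062g01130 had an event 129 bp after its TSS with 103.7 reads. VIT_05s0062g01140 had events 115 bp upstream and 166 bp after its TSS with 92.4 and 196.6 reads, the last with a −log10 q-value of 35.5.

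Genes annotated with calcium or calmodulin were 4 of the 65 with a clustered event (6.15%, 95% Wilson confidence interval from 2.42% to 14.8%) and 45 of the 1394 other listed genes (3.23%, from 2.42% to 4.29%), intervals that overlapped. A gene for an endoplasmic reticulum calcium pump of the ECA1 type (VIT_06s0004g03900, chromosome 6) had 87.5 reads at 248 bp and 175.5 reads at 641 bp before its TSS, where the −log10 q-value was 9.15 and 28.4. A second gene of the same annotation, VIT_08s0040g02830 on chromosome 8, had 1 clustered event 2063 bp upstream with 78 reads. A calmodulin gene (VIT_08s0007g05790, chromosome 8) had events with 92.4 and 120 reads, and the calmodulin-like gene CML37 (VIT_18s0122g00180, chromosome 18) had events with 82 and 97 reads. Calmodulins bind calcium and pass its signal on to other proteins. Signals at these 4 genes therefore covered both sides of the median of the list. The gene for the CDPK-related kinase CRK1 (VIT_08s0040g01250, plus strand of chromosome 8 from 12291992 to 12300356) had 3 events 5078, 4619 and 3599 bp upstream with 95.9, 72.2 and 71.4 reads and no k-mer.

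Genes of transport and metabolism with 3 clustered events included the following 5. Over all 65 genes with a clustered event, 7 were in the transport category of the table (10.8%, 95% Wilson confidence interval from 5.32% to 20.6%), against 198 of the 1394 others (14.2%, from 12.5% to 16.1%). At the gene for ammonium transporter 2 (VIT_14s0030g02160, plus strand of chromosome 14 from 7275721 to 7279576), 2 events lay inside the gene and 1 downstream, with 60, 78 and 76 reads. The ABC transporter gene MDR15 (VIT_14s0066g02320, plus strand of chromosome 14 from 28532848 to 28538587) had all its events upstream, at 8003, 5016 and 3751 bp, with 146, 66 and 80 reads. It was the 1 ABC transporter gene among the 65 genes, where 49 of the 1394 other listed genes were of this family. HMGR3 (VIT_03s0038g04100), a 3-hydroxy-3-methylglutaryl-coenzyme A reductase of the pathway that supplies precursors of sterols and other isoprenoids, is on chromosome 3, plus strand, at 2970459 to 2972817. Its cluster was distant, at 10116, 7682 and 7115 bp upstream, with 116, 96 and 75 reads. At the gene for beta-amylase 4 (VIT_15s0046g02640, plus strand of chromosome 15 from 19389359 to 19399836), a member of the family of starch-degrading enzymes, all 3 events lay inside the gene. They had 138.7, 82.3 and 81 reads with −log10 q-values of 19.8, 3.47 and 2.98. The events at the beta-ketoacyl-CoA synthase gene VIT_11s0016g04700, whose enzyme class elongates fatty acids, were also all inside, 401, 1041 and 1507 bp after the TSS, with 93, 82.8 and 69.2 reads. At both genes the event nearest to the TSS had the highest signal and the highest −log10 q-value.

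At the cysteine proteinase gene VIT_17s0000g09770 (plus strand of chromosome 17 from 11764725 to 11766577), all 3 events were in the promoter, 1335, 391 and 238 bp upstream, with 82, 100.7 and 108.3 reads. The signals were highest next to the TSS, while the −log10 q-value was highest at 391 bp, 12.7 against 8.02 and 6.70. The k-mer at the outermost event was tgnCGTGt and that at the innermost attgcttgt. The ARP2/3 complex gene VIT_11s0118g00300, part of the machinery that nucleates actin filaments, is on chromosome 11, minus strand, at 5968697 to 5974219. It had 193 reads 320 bp inside the gene, 179.3 reads 2225 bp upstream and 74.7 reads 2701 bp upstream. Of these the first also had the highest −log10 q-value, 26.3. The k-mer there was ggttgCGTG.

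Other clusters lay far from the gene to which they were assigned, so that the gene is only the nearest in the table. The cluster assigned to an aminoacyl-tRNA synthetase gene on chromosome 15 (VIT_15s0024g00600, from 1043081 to 1043750) lay 35693 to 38303 bp upstream of its TSS. Clusters assigned to a DC1 domain gene (VIT_13s0019g01280) and to an ARF-GAP gene (VIT_00s0250g00050), both on chromosome 13, and to the cyclin delta-2 gene (VIT_18s0001g07220) lay downstream of the gene end. Their signals ranged from 59.3 to 115 reads. At the DC1 domain gene, the 2 events farthest from the gene had the same k-mer, tgaCGTGt, with 80 and 115 reads. The remaining genes with 3 clustered events, which were annotated as cell division cycle protein 45 (VIT_12s0142g00280) and ATP binding (VIT_18s0001g12520), had 84 to 93 reads and 64.3 to 85.1 reads per event.

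**Figure D5:**
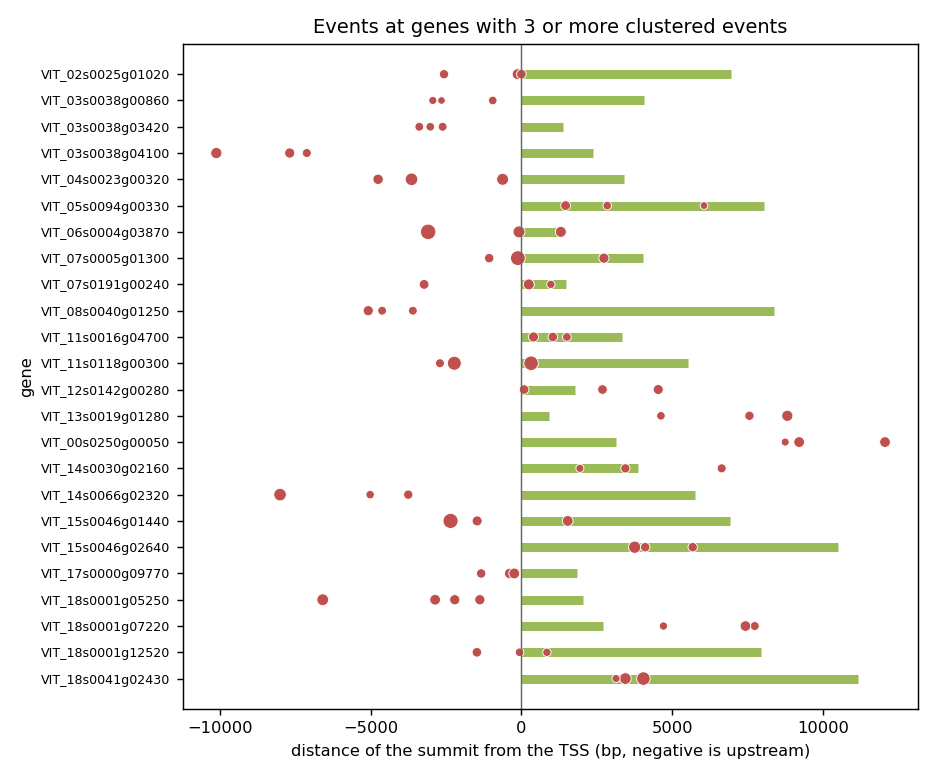
Distance of each clustered summit from the TSS in bp (horizontal axis, negative is upstream) at 24 genes with 3 or more listed clustered events (rows), with the gene as a green bar and the area of each point proportional to the signal in reads. The gene VIT_15s0024g00600, whose cluster lies over 35 kb upstream, is not drawn, and clusters are seen upstream (VvDREB27), inside (AAO3) and downstream (cyclin delta-2) of genes.

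On the study's sheet of genes both bound by NAC61 and co-expressed with it, 3 genes with a listed clustered event were found, and none of the 65 was on its sheet of high-confidence targets. How many of the 1394 listed genes without a clustered event were on these sheets is not given here. These counts are therefore not read as high or low. The 3 genes were VvDREB27, the chitinase gene VIT_05s0094g00340 and the AAA-type ATPase gene VIT_15s0048g02990. The last, on chromosome 15 (17087563 to 17089409, plus strand), had 75 reads at 1634 bp and 86 reads at 492 bp before its TSS. Their −log10 q-values were 4 and 5.58, and the k-mer at the outer event was tggCGTGt. All 3 genes had at least 2 clustered events upstream of the TSS.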

How the data were processed

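Events were used as the authors deposited them. According to the study's methods and the submitters' processing notes, reads were trimmed with fastp 0.21.0, aligned to PN40024 12X.v2 with bowtie2, filtered by mapping quality, and both replicates were passed together to GEM. The deposited signal counts reads of HALO-NAC61 that GEM attributed to each event. The −log10 p-value and −log10 q-value were deposited by the authors for HALO-NAC61 against the control, and the deposited score, which rises with the signal, was not used. Columns with interval start, end and summit offset were deposited in bp. No value per replicate or of the control was analysed here, so no test was run, and the depth of each library was not analysed here. Shares carry Wilson intervals and medians binomial order-statistic intervals, for counting error only.

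Neighbours were counted from the summits, clusters were chains of clustered events with adjacent summits at most 5000 bp apart, and the counting was tested on simulated positions. Gene IDs, gene coordinates and k-mers came from the part of the study's table of bound genes used here (1879 events). Its other columns were not used, and none of its gene IDs was in the RefSeq table at hand, so names are those of the table. The genome sequence was not used. Genes and clusters were named by fixed rules: the 10 clusters with the most members (ties broken by the shorter distance between first and last summit, which took 4 of the 25 clusters with 4 members), the 5 of highest summed signal, the 5 shortest (limited to at least 3 members after the values were seen, since a single event has no length), genes with at least 3 listed clustered events, and target-sheet genes, to which members of gene families and neighbouring genes were added after their values were seen. The members and lists were chosen with earlier results of these data known. Python 3.11.15, numpy 2.4.6, pandas 2.3.3, scipy 1.17.1 and matplotlib 3.10.9 were used.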

Additional observations from a re-analysis of the deposited data

Results flagged for a closer look

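The unanchored sequence (chr00), which was left out of all comparisons, also held events that met the neighbour rule. They were 18 of its 169 events (10.7%, 95% Wilson confidence interval from 6.84% to 16.2%), in 6 clusters. The median signal of these events was 276.1 reads (lowest 42, highest 2344), while the other 151 unanchored events had a median of 88 reads. The order of pieces on this sequence is not known, so the distances behind these counts are those of the file only.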

How the results depend on the processing

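The number of clustered events and of clusters depended on the settings of the rule. A minimum −log10 q-value of 5 gave 203 events in 76 clusters, with a median signal of 106.3 reads and a median −log10 q-value of 12.1, and a minimum of 3 raised these medians to 96 reads and 8.96. A window of 2000 bp gave 164 events in 68 clusters with a median −log10 q-value of 6.505, and a window of 10000 bp gave 1340 events in 479 clusters. At least 3 other events in place of 2 gave 120 events in 46 clusters, with a median of 86.5 reads. A k-mer was then given at 68.4% of the listed events. This share has no interval and rests on few events, several of them in the chitinase cluster, where every event had a k-mer. Merging summits within 500 bp left 399 events, with a median signal of 96 reads, a median −log10 q-value of 8.39 and a median spacing of 1596 bp. A higher minimum q-value and a merge that keeps the stronger event raise these medians by construction. The other 35 of 54 values stayed within 1.5 times the count, or inside the 95% interval of the value, as reported. Leaving out the 2 strongest clusters, an alternative chosen after seeing the data, gave a median signal of 89.4 reads and a median −log10 q-value of 7.38. No paired analysis was possible because the list pools both replicates, and for the same reason no replicate could be left out. Events with few reads limit the depth, since the weakest clustered event had 37.7 reads.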
